A study of Homo sapiens with 6 samples.

Results

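The genes described here make, recycle and use glutathione: GCLC, GCLM, GSS, GSR, GPX1, GPX8, GSTP1, GSTO1, MGST1 and MGST3. They were taken by gene symbol, all 10 of 10 were found among the 63241 genes of the table, and all 10 were tested. RNA was sequenced from MDA-MB-231 cells, an established line of triple-negative breast cancer, in 6 libraries. The ArA group was 3 libraries of cells given ArA at 40 µM for 24 h, and the control group was 3 libraries of non-treated cells. The study's title names arachidonic acid, which ArA stands for, the polyunsaturated fatty acid that membrane phospholipids release for eicosanoid synthesis. Both groups are the same cell line in the same serum-containing medium; the labels name no vehicle for the control cells and do not say whether replicates were separate cultures, so each p-value rests on variation between libraries that could be technical.

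Glutathione is a tripeptide of glutamate, cysteine and glycine and the main small thiol of the cell. Glutamate-cysteine ligase joins the first pair of amino acids and limits the rate of synthesis, and glutathione synthetase adds glycine. Glutathione peroxidases oxidise glutathione while reducing peroxides, glutathione reductase restores it with NADPH, and glutathione transferases attach it to electrophiles, among them aldehydes formed when polyunsaturated fatty acids are oxidised. Several of these genes are known targets of the transcription factor NRF2.

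Values are in TPM, a share of all transcripts corrected for length, so levels of different genes can be compared. TPM keeps no read totals, so depth is unknown and no counting interval can be given. The mitochondrial genome gave 26.9 to 32.1% of TPM in ArA and 31.6 to 32.9% in control libraries. A library of each group stood apart by the sign of its trend with base composition. Across 12637 tested genes, the deviation of a library from its group mean had a Spearman correlation with GC content of 0.58 in ArA replicate 1 and 0.67 in control replicate 2, against -0.61 to -0.29 in the other 4 libraries. Deviations from a group mean sum to 0, so opposite signs within a group are partly built in. ArA replicate 3 (-0.55) and control replicate 1 (-0.61) were about as extreme. Results for the glutathione genes are also given without ArA replicate 1 and control replicate 2, and with a correction for GC content. Markers of the cell line were present: vimentin (VIM) had 1434 to 1515 TPM in ArA and 1335 to 1441 TPM in control libraries. The oestrogen receptor gene ESR1 was at most 0.03 TPM and the progesterone receptor gene PGR was listed at 0 in every library. Of the 5 genes listed as absent from this line, 2 went against the list: ERBB2 had 36.61 to 40.34 TPM in ArA and 31.99 to 41.82 TPM in control libraries, and EPCAM 4.54 to 6.43 TPM in ArA and 3.17 to 6.92 TPM in control libraries. Of markers of other cells, the 3 endothelial genes summed to 0.28 to 0.78 TPM in ArA and 0.26 to 0.65 TPM in control libraries, the 3 hepatocyte genes to at most 0.27 TPM in ArA and 0.26 TPM in control libraries, and the 5 fibroblast or muscle genes, 3 of which reached a mean of 1 TPM, to 12.17 to 16.29 TPM in ArA and 13.15 to 14.97 TPM in control libraries. The 4 leukocyte genes summed to 217.59 to 267.52 TPM in ArA and 185.1 to 221.59 TPM in control libraries. Nearly all of that was CD68, the only one to reach a mean of 1 TPM, at 267.11, 217.96 and 217.22 TPM in ArA libraries and 192.31, 221.39 and 184.67 TPM in control libraries; the leukocyte marker PTPRC was at most 0.15 TPM. The part of other cells in the results was not tested. In bulk RNA, fewer cells with a transcript and less of it per cell cannot be told apart.

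MGST1, a membrane-bound glutathione transferase and peroxidase of the endoplasmic reticulum and outer mitochondrial membrane, was the most abundant of the 10 genes. By p, with all 6 libraries and TPM as deposited, it was also the one that differed most between groups. GCLC had a smaller p than MGST1 with median of ratios and with the GC correction, alone and with the replicate block. The same held without both ArA replicate 1 and control replicate 2. The ligase subunits GCLC and GCLM had similar differences of means at far lower levels. GSR had a smaller difference, while GSS, both peroxidases, GSTP1 and GSTO1 had means that differed by 1.90 to 6.30%. None of the 10 genes passed the adjusted threshold of 0.05 in limma over 12999 tested genes, and each had an adjusted p of 0.999. The background was 3 genes, or 0.0231% of those tested. At an unadjusted p under 0.05 there were 2 of the 10, GCLC and MGST1, against 2.78% of all tested genes.

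In order of mean TPM over the 6 libraries, the genes ran MGST1 at 574, GSTO1 at 414, GPX1 at 201, GSTP1 at 153, GSS at 112.4, MGST3 at 111.8, GPX8 at 38.9, GCLM at 27.7, GSR at 25.7 and GCLC at 13.2. Neighbours in this order kept their places in 6 of 6 libraries, with 2 exceptions: GSS was above MGST3 in 2 of 6 libraries and GCLM above GSR in 5 of 6. Both most abundant genes encode transferases, and the catalytic subunit of the ligase was the least abundant. Summed over the 10 genes, ArA replicates 1, 2 and 3 had 1762, 1760 and 1807 TPM, and control replicates 1, 2 and 3 had 1536, 1631 and 1530 TPM. Every ArA sum lay above every control sum. The means differed by 211 TPM, of which MGST1 made up 141 TPM. For the 9 genes without MGST1 the sums overlapped, at 1099, 1150 and 1147 TPM in ArA libraries and 997, 1134 and 1054 TPM in control libraries.

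**Figure D1:**
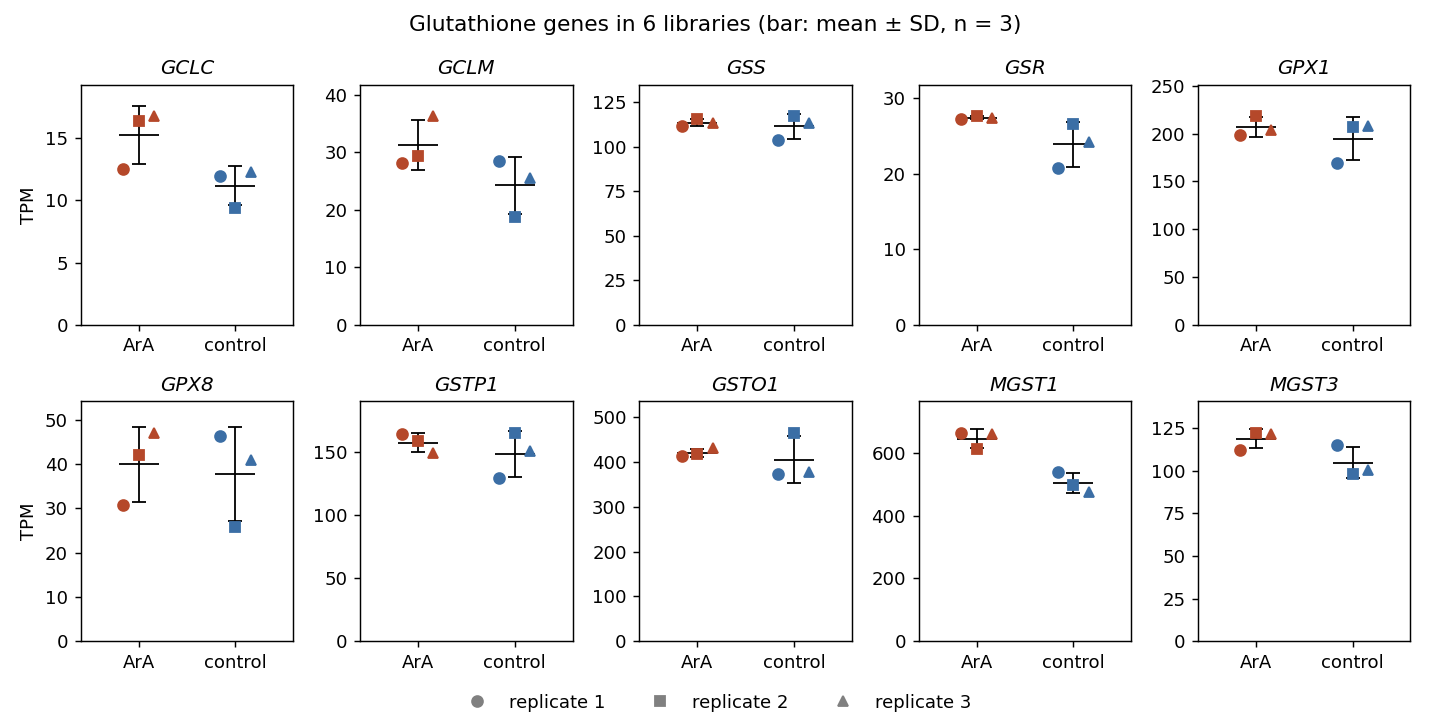
TPM of each glutathione gene (1 panel a gene, linear axis from 0) in 3 ArA and 3 control libraries, with the mean and SD of each group as a bar; point shapes mark the replicate number. All 3 ArA points lie above all 3 control points for GCLC, GSR and MGST1, and the groups overlap for the other 7 genes.

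Glutamate-cysteine ligase has a catalytic subunit, encoded by GCLC, and a modifier subunit, encoded by GCLM, which raises the enzyme's affinity for glutamate. GCLC (ENSG00000001084) lies on the reverse strand at chr6:53497341-53616970 in hg38. It had 12.55, 16.39 and 16.76 TPM in ArA replicates 1, 2 and 3, against 11.92, 9.37 and 12.26 TPM in control replicates 1, 2 and 3. The groups did not overlap, but ArA replicate 1 exceeded control replicate 3 by less than 1 TPM. The group means were 15.2 ± 2.33 TPM in ArA and 11.2 ± 1.58 TPM in control libraries (SD, n = 3 each), a difference of 36.2%. On the log2(TPM + 1) scale, which understates changes of low genes, the difference was 0.41 (SE 0.16, 95% interval 0.039 to 0.78), and 2.02% of tested genes had a larger one.

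GCLM (ENSG00000023909), on the reverse strand at chr1:93885205-93909456, had 28.07, 29.32 and 36.24 TPM in ArA libraries and 28.43, 18.77 and 25.5 TPM in control libraries. The groups overlapped through control replicate 1. The log2 difference was 0.36 (SE 0.17, 95% interval -0.047 to 0.77), and the means differed by 28.8%. The ratio of GCLM to GCLC was 2.24, 1.79 and 2.16 in ArA libraries and 2.39, 2.00 and 2.08 in control libraries, so the proportion of the subunits' transcripts overlapped between groups. Such a ratio does not depend on how a library is scaled.

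Both ligase genes were low in ArA replicate 1 and control replicate 2, the libraries that stood apart by GC content. GCLC deviated by -0.25 in ArA replicate 1 and by -0.22 in control replicate 2 from its group's mean on the log2 scale, and GCLM by -0.14 in ArA replicate 1 and by -0.33 in control replicate 2. Without these libraries the log2 difference was 0.43 (SE 0.085) for GCLC and 0.27 (SE 0.13) for GCLM. The groups of both genes were then separated, as were those of 44.4% of all tested genes in this smaller fit. Without control replicate 2 alone, the log2 difference of GCLM was 0.20 (SE 0.14). With the GC correction it was 0.37 (SE 0.075, limma adjusted p = 0.633) for GCLC and 0.35 (SE 0.11, limma adjusted p = 1.00) for GCLM. The limma adjusted p of GCLC over all 18 alternatives ran from 0.478 to 1. Its groups stayed separated with median of ratios, quantile normalization and rescaling without mitochondrially encoded genes. They also stayed separated with the GC correction, with and without the replicate block. The other alternatives keep the order of the values, so they could not undo the separation of GCLC. GCLM, whose groups overlapped in TPM as deposited, had separated groups with the GC correction, with and without the replicate block.

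GSS (ENSG00000100983; reverse strand, chr20:34928433-34956027) encodes glutathione synthetase, which completes the tripeptide. It had 111.67, 115.62 and 113.02 TPM in ArA libraries and 103.62, 117.04 and 113.3 TPM in control libraries. The ArA values lay inside the range of the control values. The log2 difference was 0.029 with a 95% interval of -0.16 to 0.22, which bounds the fold between 0.895 and 1.16. Its sign turned negative, at -0.046 to -0.024, under each of 3 other scalings.

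The glutathione peroxidases include selenoproteins, in which a TGA codon inside the reading frame is read as selenocysteine at the active site. GPX1, the main cytosolic peroxidase, is one of them. GPX8, a type II membrane protein of the endoplasmic reticulum, has no TGA in frame. The sequences below, from GENCODE v29 transcripts on hg38, show what separates the pair at the active site: the codon in capitals is codon 49 of GPX1 and the codon aligned to it, codon 79 of GPX8. The translated genes were identical at 36.8% of 174 aligned positions.
GPX1, chr3:49358114-49358152, reverse strand: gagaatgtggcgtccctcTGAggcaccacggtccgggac
GPX8, chr5:55161006-55161044, forward strand: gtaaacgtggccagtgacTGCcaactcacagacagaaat

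GPX1 (ENSG00000233276; chr3:49357171-49358600, typed in GENCODE v29 as a polymorphic pseudogene) had 198.55, 218.12 and 203.82 TPM in ArA libraries and 168.85, 207.24 and 207.62 TPM in control libraries. The groups overlapped, with control replicate 1 the lowest of the 6 values. The log2 difference was 0.093 (SE 0.10, 95% interval -0.15 to 0.34). The pseudogene GPX1P1, with which reads could be shared, had at most 0.51 TPM.

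GPX8 (ENSG00000164294; forward strand, chr5:55160118-55167071) had 30.69, 42.18 and 47.11 TPM in ArA libraries and 46.45, 25.91 and 40.88 TPM in control libraries. On the log2 scale its replicates were the most spread of the 10 genes, and the lowest value of each group was ArA replicate 1 and control replicate 2. The log2 difference was 0.10 with an interval of -0.47 to 0.67, and its sign turned to -0.14 without control replicate 2. Without both libraries it was 0.032 (SE 0.10), and with the GC correction 0.066 (SE 0.095).

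GSR (ENSG00000104687; reverse strand, chr8:30678061-30727999) encodes glutathione reductase, the enzyme that regenerates reduced glutathione. It had 27.32, 27.65 and 27.42 TPM in ArA libraries, a spread of 0.169 TPM (SD, n = 3), and 20.81, 26.64 and 24.25 TPM in control libraries, a spread of 2.93 TPM (SD, n = 3). All ArA values lay above all control values, the nearest being control replicate 2. The means differed by 14.9%, and the log2 difference was 0.20 (SE 0.11, 95% interval -0.065 to 0.46), or 0.11 without control replicate 1 and 0.28 without control replicate 2. With any of the 3 other scalings, or with the GC correction, the groups overlapped.

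**Figure D2:**
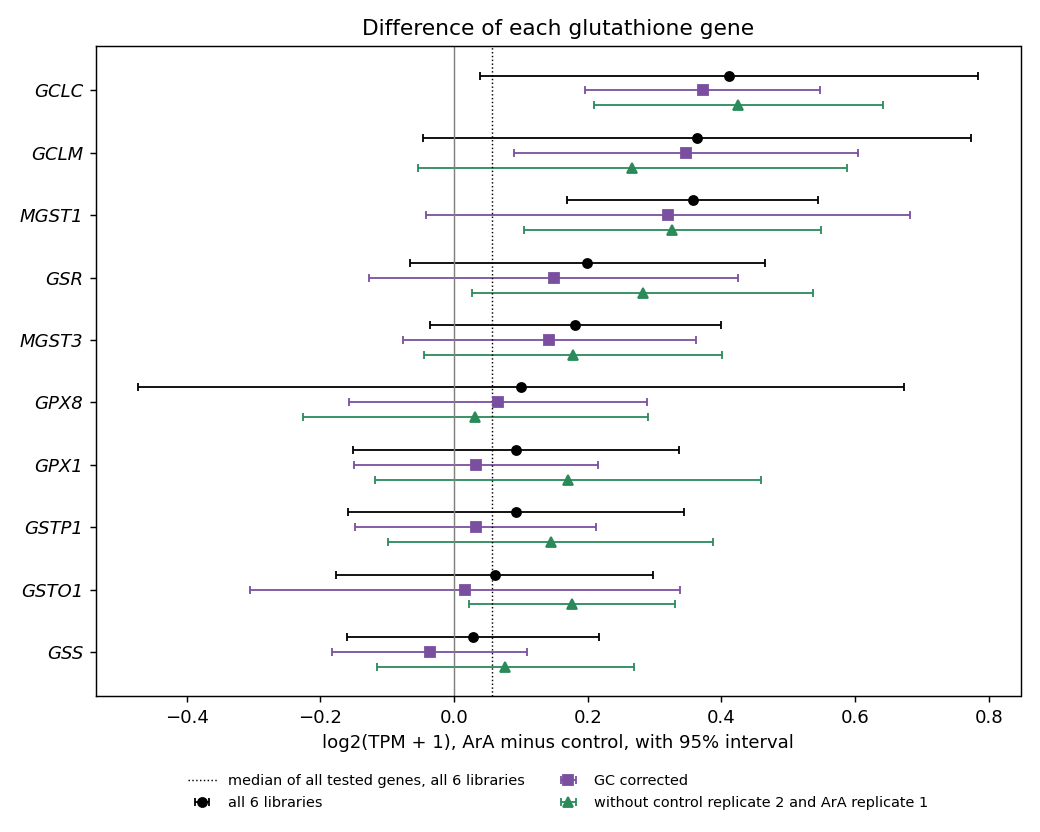
Difference of each glutathione gene, ArA minus control, on the log2(TPM + 1) scale with its 95% interval, from all 6 libraries, after GC correction, and without control replicate 2 and ArA replicate 1. With all libraries the intervals of GCLC and MGST1 lie above 0, and the dotted line marks the median of all tested genes at 0.056.

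Among soluble transferases, GSTP1 encodes the pi class enzyme, widely expressed in epithelial tumours, and GSTO1 the omega class enzyme, which has a cysteine in its active site and removes glutathione from proteins. GSTP1 (ENSG00000084207; forward strand, chr11:67583595-67586656) had 163.98, 158.99 and 149.52 TPM in ArA libraries and 129.1, 165.24 and 150.42 TPM in control libraries. The groups overlapped, and the log2 difference was 0.093 (SE 0.11, 95% interval -0.16 to 0.34). GSTO1 (ENSG00000148834; forward strand, chr10:104235356-104267459) had 413.78, 419.06 and 431.21 TPM in ArA libraries and 372.82, 465.81 and 379.14 TPM in control libraries. Its highest value was control replicate 2. The log2 difference was 0.061 (SE 0.10, 95% interval -0.18 to 0.30), close to the median of all tested genes, and turned to -0.016 after quantile normalization. It was 0.0035 without control replicate 1. Without control replicate 2 it was 0.16 with separated groups, as for 27.0% of all tested genes. Without both control replicate 2 and ArA replicate 1 it was 0.18 (SE 0.061), again with separated groups, as for 44.4% of all tested genes.

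The microsomal transferases belong to a family of small membrane proteins that also holds the prostaglandin E synthase PTGES and leukotriene C4 synthase LTC4S, enzymes that use glutathione in making eicosanoids from arachidonic acid. MGST1 (ENSG00000008394; forward strand, chr12:16347142-16609259) had 663.51, 610.27 and 660.51 TPM in ArA libraries and 538.7, 496.17 and 475.57 TPM in control libraries. The lowest ArA value was 71.57 TPM above the highest control value. The means were 645 ± 29.9 TPM in ArA and 503 ± 32.2 TPM in control libraries (SD, n = 3 each), a difference of 28.1%. The log2 difference was 0.36 (SE 0.080, 95% interval 0.17 to 0.54), which bounds the fold between 1.12 and 1.46. Its unadjusted p in limma was 0.00271, the 26th smallest of 12999 genes.

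MGST1 differed little from its group means in the libraries that stood apart by GC content, at 0.042 in ArA replicate 1 and -0.019 in control replicate 2 on the log2 scale. Without them the log2 difference was 0.33 (SE 0.088). It was 0.26 to 0.30 under the 3 other scalings, with separated groups in each. With the GC correction it was 0.32, but its SE was 0.15 and the groups overlapped. A share of the 10 genes' summed TPM does not depend on scaling: MGST1 took 37.6, 34.7 and 36.5% in ArA libraries and 35.1, 30.4 and 31.1% in control libraries, and the groups overlapped through control replicate 1.

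MGST3 (ENSG00000143198; forward strand, chr1:165630861-165661796), also a microsomal transferase and peroxidase, had 112.37, 122.35 and 121.8 TPM in ArA libraries and 115.46, 98.38 and 100.67 TPM in control libraries. Its groups overlapped through control replicate 1, and the log2 difference was 0.18 (SE 0.092, 95% interval -0.036 to 0.40). The ratio of MGST1 to MGST3 was 5.90, 4.99 and 5.42 in ArA and 4.67, 5.04 and 4.72 in control libraries, and overlapped between groups. MGST2, a further member of the family, had 97.73, 87.07 and 104.93 TPM in ArA libraries and 92.04, 91.73 and 83.37 TPM in control libraries, with a log2 difference of 0.11 (SE 0.098). PTGES had 20.68, 18.75 and 18.44 TPM in ArA libraries against 11.26, 13.47 and 10.78 TPM in control libraries. Its groups did not overlap, and its log2 difference of 0.66 (SE 0.12, limma adjusted p = 0.690) was the 15th by p of all tested genes. LTC4S was at most 0.44 TPM and ALOX5AP, which presents arachidonic acid to 5-lipoxygenase, at most 0.31 TPM in any library.

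As a group, the 10 genes had positive differences in 10 of 10, against 68.9% of all tested genes, and 9 of 10 were above the median of all tested genes, where 50.0% are. The median of the 10 log2 differences was 0.14, against 0.056 for all tested genes. Groups were separated for 3 of 10, all higher in ArA, where 8.05% of all tested genes were separated in either direction and 6.84% were higher. With median of ratios, quantile normalization and rescaling without mitochondrially encoded genes, 9, 8 and 8 of the 10 were positive, against 53.2, 51.7 and 49.25% of all tested genes. In each of these scalings 2 were separated, GCLC and MGST1, against 5.34, 5.72 and 6.07% of all tested genes. The 10 genes were chosen with results of these data known, so these counts describe them and are no test.

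In control replicates 1 and 2 the direction in which the 10 genes deviated from their group mean divided them by GC content. GPX1, GSTP1, GSS, GSR and GSTO1, whose longest transcripts had a GC content of 46.5 to 64.2%, were all above their control mean in control replicate 2 and all below it in control replicate 1. GCLM, GPX8, MGST1, MGST3 and GCLC, at 37.3 to 44.3%, were the reverse in both libraries. Deviations within a group cancel out, so the mirrored division is partly built in. Over all tested genes the deviations of control replicates 1 and 2 had r = -0.72. ArA replicate 3 divided the genes as control replicate 1 did, except for GSTO1, which was above its group mean by 0.034. The remaining libraries did not divide the genes in this way, and in ArA replicate 1, 8 of the 10 were below their group mean. Across the 10 genes the Pearson correlation of the deviation with GC content was 0.49, 0.30 and -0.77 in ArA replicates 1, 2 and 3, and -0.82, 0.66 and 0.045 in control replicates 1, 2 and 3, a description over genes that share their libraries. Over the 6 libraries GCLC and GCLM had r = 0.89, GSS and GPX1 r = 0.95, and GPX8 and GSTP1 r = -0.73. The part of base composition in these correlations was not tested.

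**Figure D3:**
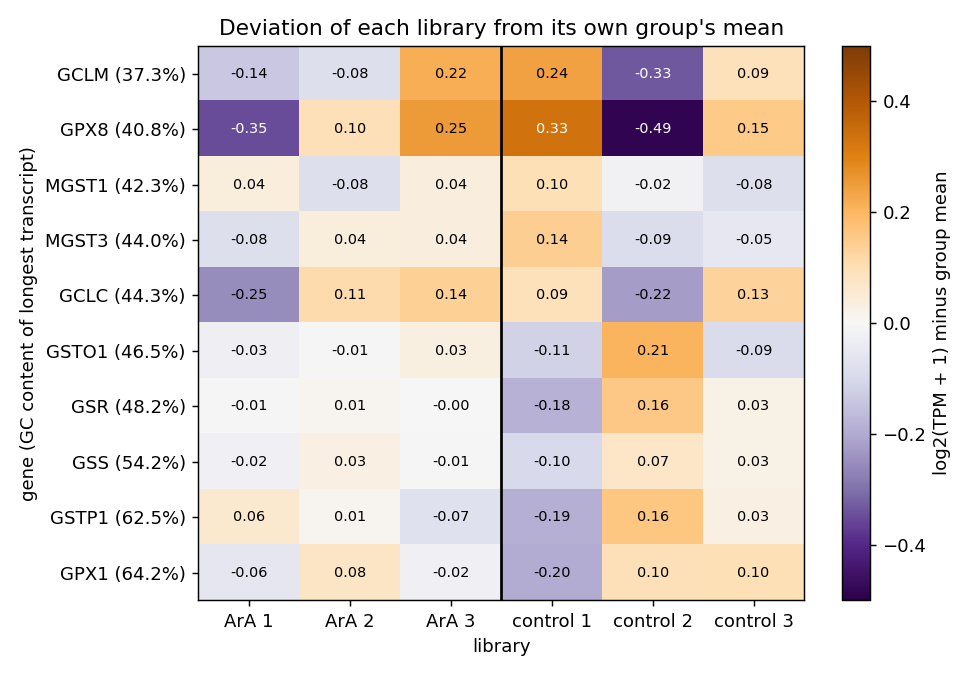
Deviation of each library from the mean of its own group on the log2(TPM + 1) scale, for the glutathione genes ordered by the GC content of their longest transcript, with ArA libraries left and control libraries right of the line. GPX8 has the widest range, from -0.49 in control replicate 2 to 0.33 in control replicate 1, and MGST1 stays between -0.080 and 0.099.

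Profiles most like those of the ligase genes were sought among 9141 tested genes whose mean reached 5 TPM. Across libraries, n = 6, CRYBB2P1 (r = 0.994), ETFA (r = 0.991) and TRIM7-AS2 (r = 0.988) were closest to GCLC, and SPIN2B, DNAJB14 and COX18 (r = 0.996, 0.996 and 0.995) closest to GCLM. With 6 libraries such values are common: the 100th closest gene still had r = 0.933 with GCLC and r = 0.936 with GCLM.

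NRF2 binds, with small MAF proteins, the antioxidant response element, whose core is TGACNNNGC. This core was searched on both strands in RefSeq promoter windows on GRCh38.p14, from 250 bases before to 50 bases after each start. Windows were found for 8 of the 10 genes, and those of 4 genes held the core: GCLM, GSTO1, GSTP1 and MGST1, the last in 1 of its 3 windows and after the start. The 8 genes had 10 windows, and each of the 4 held the core in 1 window. Of all 35116 windows, 13.3% held it, a share by window and not by gene. The matches before a start are shown with the core in capitals. In GCLM it lies on the opposite strand, with its first printed base at position -34 from the start, in GSTO1 the matches begin at -226 and -161, and in GSTP1 at -66.
GCLM, chr1:93909441-93909479, reverse strand: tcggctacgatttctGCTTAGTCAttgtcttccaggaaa
GSTO1, chr10:104254651-104254754, forward strand: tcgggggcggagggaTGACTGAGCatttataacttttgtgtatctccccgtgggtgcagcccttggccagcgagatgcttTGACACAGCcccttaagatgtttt
GSTP1, chr11:67583731-67583769, forward strand: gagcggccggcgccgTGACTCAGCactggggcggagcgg
A match in letters is no measure of binding, and no match in the windows of GCLC, GPX1, GPX8 and MGST3 says only that these letters are not there.

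A wider list covered 59 other genes of glutathione handling, of which 58 were in the table and 41 were tested. None passed the adjusted threshold in limma in either direction, 2 had an unadjusted p under 0.05 (PTGES and the exporter ABCC3), and 6 separated the groups, all higher in ArA, where 6.84% of all tested genes did. Of the 41, 35 had positive differences, against 68.9% of all tested genes, and 23 were above the median of all tested genes, where 50.0% are. The median of the 41 was 0.080, against 0.056 for all tested genes. GSTT1 was not analysed here.

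In salvage and cysteine supply, 8 of 10 tested genes were positive, 6 were above the median of all tested genes and 1 was separated. Over all tested genes, 68.9% were positive, 50.0% above the median and 6.84% separated with ArA higher. CHAC1, which degrades glutathione, was the separated gene of this role. It had 7.74, 7.89 and 7.55 TPM in ArA libraries and 5.73, 6.78 and 6.23 TPM in control libraries. Its groups overlapped with median of ratios and quantile normalization, and stayed separated without mitochondrially encoded genes. The gamma-glutamyl transferase GGT1 had a log2 difference of 0.16 (SE 0.12) and the oxoprolinase OPLAH of 0.16 (SE 0.18). Among other peroxidases, the plasma enzyme GPX3 had a log2 difference of 0.11 (SE 0.13) and the lipid hydroperoxidase GPX4 of 0.055 (SE 0.088), with overlapping groups. GPX4 had 372 to 399 TPM in ArA and 336 to 402 TPM in control libraries, more than GPX1 in every library.

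Of 10 other soluble transferases tested, 8 were positive, 3 were above the median of all tested genes and 2 were separated. Their median log2 difference was 0.048, against 0.056 for all tested genes. Over all tested genes, 68.9% were positive, 50.0% above the median and 6.84% separated with ArA higher. The mitochondrial and peroxisomal kappa class enzyme GSTK1 had 111.46, 106 and 104.54 TPM in ArA libraries and 98.39, 97.26 and 86.15 TPM in control libraries. The theta class gene GSTT2B had 20.85, 20.46 and 22.99 TPM in ArA and 18.68, 18.45 and 20.36 TPM in control libraries; it has a near-identical copy in GSTT2, so the level of each is uncertain. The mu class gene GSTM3 had a log2 difference of 0.20 (SE 0.12). The alpha class genes GSTA1, GSTA2, GSTA3 and GSTA5, abundant in liver, were listed at 0 in every library.

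Of 9 glutaredoxin and glyoxalase genes, 8 were positive, 5 were above the median of all tested genes and none was separated. The largest difference was that of GLRX, a reductase of protein-glutathione disulfides, at 0.22 (SE 0.13). Next came 0.15 for the mitochondrial glutaredoxin GLRX2 and for ESD, the S-formylglutathione hydrolase. Among 8 transport genes, 7 were positive, 6 were above the median of all tested genes and 2 were separated. For this role and the glutaredoxins and glyoxalases, the shares over all tested genes were 68.9% positive, 50.0% above the median and 6.84% separated higher. ABCC3, which exports glutathione and glucuronide conjugates, had 16.63, 16.14 and 15.29 TPM in ArA libraries and 12.36, 12.32 and 11.44 TPM in control libraries. Its log2 difference was 0.38 (SE 0.10, limma adjusted p = 0.999). ABCC5, an exporter of cyclic nucleotides and conjugates, had a log2 difference of 0.20 (SE 0.11) with separated groups, and SLC3A2, the heavy chain of the cystine importer, one of 0.17 (SE 0.10) with overlapping groups. Of the 3 other scalings, the groups of ABCC3 overlapped with quantile normalization alone, and those of ABCC5 overlapped in all 3.

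**Figure D4:**
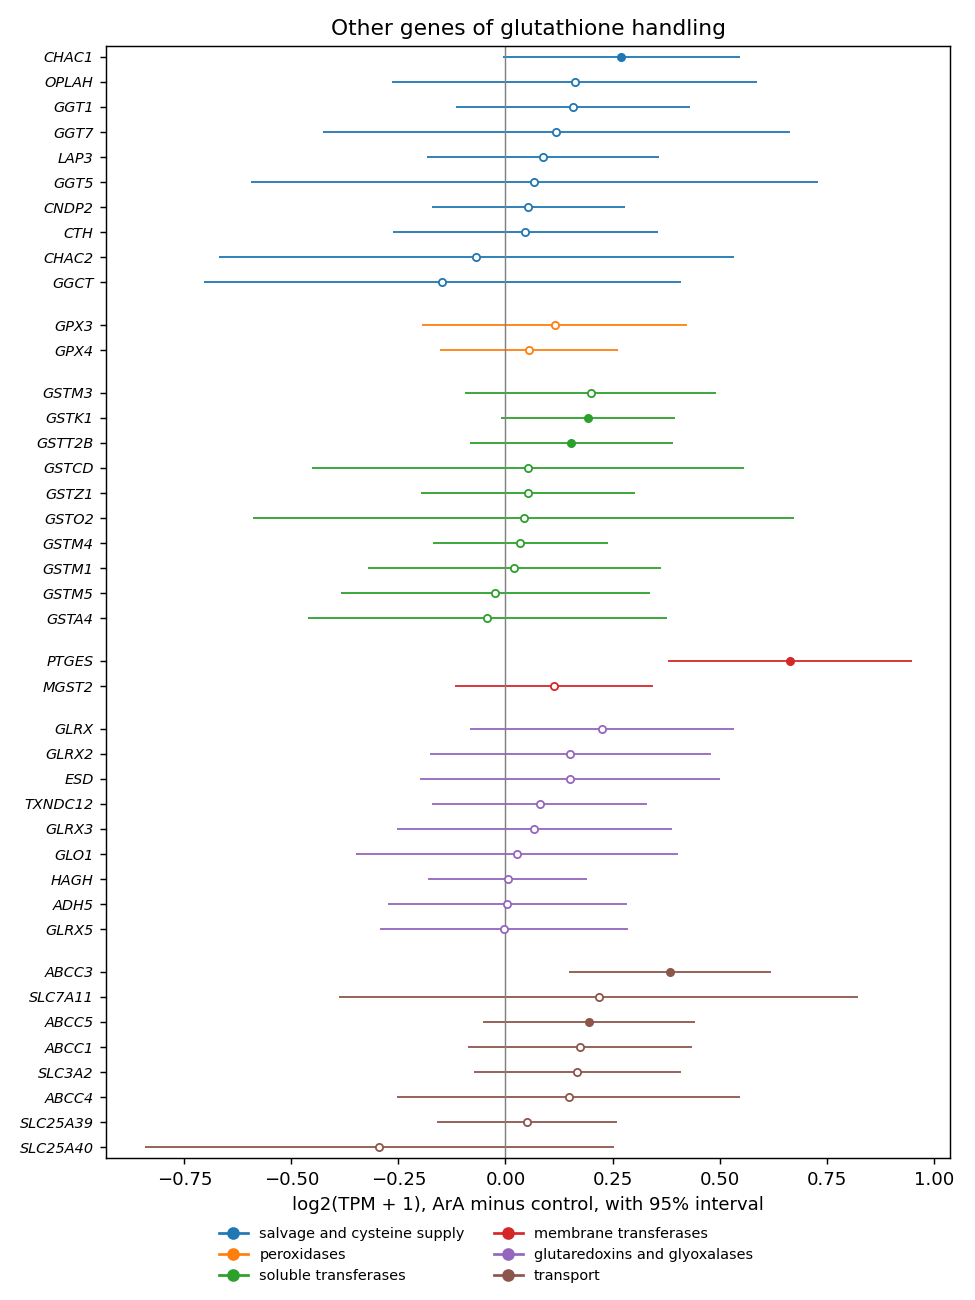
Log2 difference, ArA minus control, with its 95% interval for 41 tested genes of the wider glutathione list, coloured by role; filled points mark genes whose groups did not overlap. PTGES and ABCC3 are the genes whose intervals lie above 0, and no interval lies below 0.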

How the data were processed

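Transcript levels of 6 MDA-MB-231 libraries, 3 ArA and 3 control, came from 1 table of TPM values deposited by the authors. Per the submitters' processing notes, HISAT2, StringTie, RSEM and the build hg38 were used; versions, roles, annotation and strand setting are not stated in what was read here. Of the table's lines, 50 name no gene and were left out. An exact 0 can be a failed estimate and is given as listed. The 12999 genes whose mean reached 1 TPM were fitted on log2(TPM + 1) with limma 3.58.1 in R 4.3.3 (eBayes with a trend, group only, 2-sided, Benjamini-Hochberg over all tested genes, threshold 0.05). The fit was tested on simulated data with independent noise, no trend with GC content and planted differences larger than those of the glutathione genes. That test therefore does not show whether differences of the size seen here would be called. "Separated" means that all 3 values of one group lay on the same side of the other group's.

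Coordinates, transcript length and GC content came from GENCODE v29 (hg38), by Ensembl identifier, with GC values for 97.2% of tested genes. Genes overlapping GCLC, GPX8 and MGST1 had at most 0.55 TPM. The members, lists and tests were chosen with earlier results of these data known. Of the wider list, up to 3 genes a role with the smallest p are named with statistics; others named were chosen after their values were seen. Alternatives were 3 scalings (median of ratios, quantile normalization, rescaling without mitochondrially encoded genes), no filter or a mean minimum of 5 TPM, pseudocounts of 0.1 and 5, a replicate block, robust eBayes and each library left out. Those chosen after seeing the data were a GC correction (natural spline, 5 degrees of freedom), alone and with the block, and a fit without control replicate 2 and ArA replicate 1. The GC correction subtracted each library's fitted trend of its deviations from the mean of all 6 libraries. It therefore also shifted whole libraries, as a scaling does, and removed trends with GC content between groups. With it the median log2 difference of all tested genes was 0.0098, against 0.056 without it.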

Additional observations from a re-analysis of the deposited data

How the results depend on the processing

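None of the 10 glutathione genes and none of the wider list passed the adjusted threshold in limma under any of the 18 alternatives; 1 to 4 of the 10 had an unadjusted p under 0.05, the 4 without both libraries that stood apart, where 9.65% of all tested genes did. Of 180 values for single genes, 168 kept their direction. GCLC, GCLM, GSR, MGST1 and MGST3 were positive in all 18 alternatives. GSS, at 0.029 with all libraries, reversed to -0.024 with median of ratios, -0.046 with quantile normalization, -0.0361 without mitochondrially encoded genes and -0.0364 with the GC correction, with and without the replicate block. GSTO1 reversed to -0.016 with quantile normalization and -0.0041 without mitochondrially encoded genes. With each library left out, GSS ranged from -0.022 to 0.065 (0.077 without both libraries that stood apart), GPX1 from -0.0053 to 0.14, GPX8 from -0.14 to 0.27 and GSTP1 from -0.0025 to 0.17; the negative values came without control replicate 1, and for GPX8 without control replicate 2 or ArA replicate 3.

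The median of the 10 differences, 0.14, was 0.089, 0.068 and 0.077 under median of ratios, quantile normalization and rescaling without mitochondrially encoded genes, 0.10 with the GC correction with and without the block, 0.18 without both control replicate 2 and ArA replicate 1, and 0.12 to 0.21 with each library left out. Less the median of all tested genes it was 0.084, and 0.063 to 0.080 under the 3 scalings, so most of that move was shared by all genes. Separated groups numbered 3 to 5 with each library left out (5 without ArA replicate 1 or control replicate 1, where 23.6 and 15.4% of all tested genes were separated) and 6 without both libraries, where 44.4% were. Leaving a library out cannot undo a separation, so these counts could only stay the same or rise.

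Over all tested genes, 3 passed, against 0 with the replicate block, 5 with the GC correction, 0 to 7 with each library left out and 12 without both libraries; the cause was not tested. Same-numbered libraries deviated with correlations of -0.16, -0.28 and 0.11. The deviations also followed GC content, so these values cannot show whether same-numbered libraries were paired, which the labels do not state. With the replicate block 1 of the 10 genes, MGST1, had an unadjusted p in limma under 0.05, against 1.78% of all tested genes.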
